A study of Mus musculus with 9 samples.

Results

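The IκB family comprises the proteins that bind NF-κB dimers through ankyrin repeats, and its 6 members outside the NF-κB precursors were followed here across 9 microarrays of 3T3 fibroblasts, a mouse embryonic fibroblast line. The genes were *Nfkbia* (IκBα), *Nfkbib* (IκBβ), *Nfkbie* (IκBε), *Nfkbiz* (IκBζ), *Nfkbid* (IκBNS) and *Bcl3*. They were chosen by symbol and not by a rule on their values, though with earlier results of these data known. Each was read from probe sets that the platform annotation pairs with that symbol alone. All 6 were measured, each by a single probe set, among 19946 genes named in this way. Of the 3 groups of 3 arrays, the first held Trap-80 knock-down cells given 5 ng/ml of TNF-α for 1 h. The second held wild-type cells given the same stimulation, and the third held unstimulated wild-type cells. Trap-80, encoded by *Med17*, is a subunit of Mediator, the complex through which many activators contact RNA polymerase II. The knock-down cells stably expressed a short hairpin RNA against Trap-80, and the wild-type cells an irrelevant hairpin. The study grew its hairpin lines as clones. On these arrays the loss of Trap-80 and any other property of the clone therefore cannot be told apart. Away from the arrays, the study also measured *Nfkbia* with a further hairpin and after adding a hairpin-resistant Trap-80. The knock-down line at rest was not analysed here, and a gap between the lines under TNF-α therefore cannot be told apart from one that was there before it.

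In resting cells the typical inhibitors IκBα, IκBβ and IκBε hold NF-κB dimers in the cytoplasm. TNF-α activates the IκB kinase, which marks these inhibitors for ubiquitination and destruction by the proteasome, and the freed dimers enter the nucleus. *Nfkbia* is itself an NF-κB target, and its resynthesis removes the dimers from DNA, closing a negative feedback loop. The atypical members IκBζ, IκBNS and Bcl-3 are nuclear proteins that bind NF-κB on chromatin, chiefly dimers of p50 or p52, and can raise or restrain transcription according to the gene. The arrays measured messenger RNA and carry no information on the stability or location of the proteins.

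The labels were checked by *Med17*, whose signal was 6.17 to 6.35 on the 3 knock-down arrays, against 7.77 to 7.98 on the 3 stimulated wild-type arrays, on the log2 scale used for every signal here. The difference of −1.64 (SE 0.09, limma, adjusted p = 4.8e-05) left 32.0% of the wild-type signal. The exact two-sided permutation p was 0.1, the smallest that 3 arrays against 3 allow. The study reported a larger reduction by quantitative PCR, so the array percentage describes signal and not the share of transcript left. Array medians lay between 4.47 and 4.59, and pairs of arrays correlated at 0.985 to 0.992 within groups and at 0.981 to 0.992 between groups. All 10 fibroblast markers had mean signals above that of the median probe set (4.51), whereas 1 of 6 macrophage, 0 of 4 endothelial, 1 of 4 epithelial and 1 of 3 measured lymphocyte markers did. The summed fibroblast level, as the mean of its markers on an array, was 10.11 to 10.39 in knock-down cells with TNF-α, 10.19 to 10.50 in wild-type cells with TNF-α and 10.21 to 10.51 in unstimulated wild-type cells. Within that list, *Thy1* and *S100a4* were higher and *Pdgfra* and *Lox* lower in knock-down cells than in stimulated wild-type cells. In such bulk RNA, fewer cells of a type and less RNA per cell cannot be told apart.

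The promoters of the responsive inhibitors *Nfkbia* and *Nfkbie* are shown with those of *Nfkbib* and *Bcl3*, whose responses to TNF-α were smaller, since NF-κB is known to act on *Nfkbia* through sites close to its start. Sequences are those of RefSeq on GRCm38.p6, which gave windows for 5 of the 6 members. *Nfkbiz* is named only. Each line runs 5′ to 3′ on the gene's own strand, ends at the base before the annotated start (for *Bcl3*, before the outermost of its annotated starts), and carries in capitals any match to the NF-κB consensus on either strand.
Nfkbia, chr12:55492648-55492897, minus strand: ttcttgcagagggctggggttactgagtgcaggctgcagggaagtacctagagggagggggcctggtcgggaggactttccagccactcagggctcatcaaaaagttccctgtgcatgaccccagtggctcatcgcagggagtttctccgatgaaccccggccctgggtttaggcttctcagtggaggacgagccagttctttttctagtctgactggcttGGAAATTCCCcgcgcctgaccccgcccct
Nfkbie, chr17:45555450-45555699, plus strand: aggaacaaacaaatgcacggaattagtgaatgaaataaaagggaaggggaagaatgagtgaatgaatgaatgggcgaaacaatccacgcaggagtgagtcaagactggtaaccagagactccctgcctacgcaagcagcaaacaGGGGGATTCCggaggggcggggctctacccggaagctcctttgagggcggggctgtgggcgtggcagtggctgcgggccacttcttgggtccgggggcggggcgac
Nfkbib, chr7:28766645-28766894, minus strand: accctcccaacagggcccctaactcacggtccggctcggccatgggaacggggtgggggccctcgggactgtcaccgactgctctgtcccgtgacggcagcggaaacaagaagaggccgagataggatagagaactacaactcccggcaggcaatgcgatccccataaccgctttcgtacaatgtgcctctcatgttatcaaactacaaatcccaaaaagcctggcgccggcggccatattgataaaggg
Bcl3, chr7:19822825-19823005, minus strand: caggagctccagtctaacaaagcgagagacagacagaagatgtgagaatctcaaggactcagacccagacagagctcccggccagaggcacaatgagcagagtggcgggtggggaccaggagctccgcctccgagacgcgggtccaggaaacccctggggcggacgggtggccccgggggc

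In the 250 bases before the start, the NF-κB consensus (both strands) matched in 3.9% of the 32851 mouse promoter windows searched in the same way. *Nfkbia* held 1 match, GGAAATTCCC at positions −29 to −20, which fits the consensus on the strand opposite to the gene. *Nfkbie* held 1 match as well, GGGGGATTCC at −106 to −97. *Nfkbib* and *Bcl3* held 0 matches to the consensus. *Nfkbid*, which has 3 annotated starts, held 0 matches before its outermost start and 2 before its second, GGGACTTCCC at −226 to −217 and GGAATTCCCC at −181 to −172. The GC box GGGCGG, the letters bound by Sp1, occurred in 32.7% of all windows, with 1 match in *Nfkbia*, 3 in *Nfkbie*, 0 in *Nfkbib* and 3 in *Bcl3*, of which the printed stretch holds the one at −93 to −88. *Nfkbie* alone among these windows held the AP-1 letters TGANTCA (both strands, 6.75% of all windows), at −156 to −150. The TATA letters TATAAA were absent from every window of the 5 members searched, as they were from all but 12.4% of windows. The *Bcl3* window precedes an inner start, and 181 of its 250 bases lie before the outermost start. A looser 10-base pattern, which fixes only the outer bases of the NF-κB consensus, matched in 45.8% of all windows. It had 2 matches in *Nfkbia*, 3 in *Nfkbie*, 0 in *Nfkbib* and 3 in *Bcl3*. The printed *Bcl3* stretch holds the one at −85 to −76. *Nfkbid* had 4 before its outermost start. By the looser pattern *Bcl3* was thus not set apart from *Nfkbie*, and no link between matches and responses was tested. A match is a description of the letters and not evidence of a bound site, and the lack of one says nothing of sites elsewhere.

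**Figure D1:**
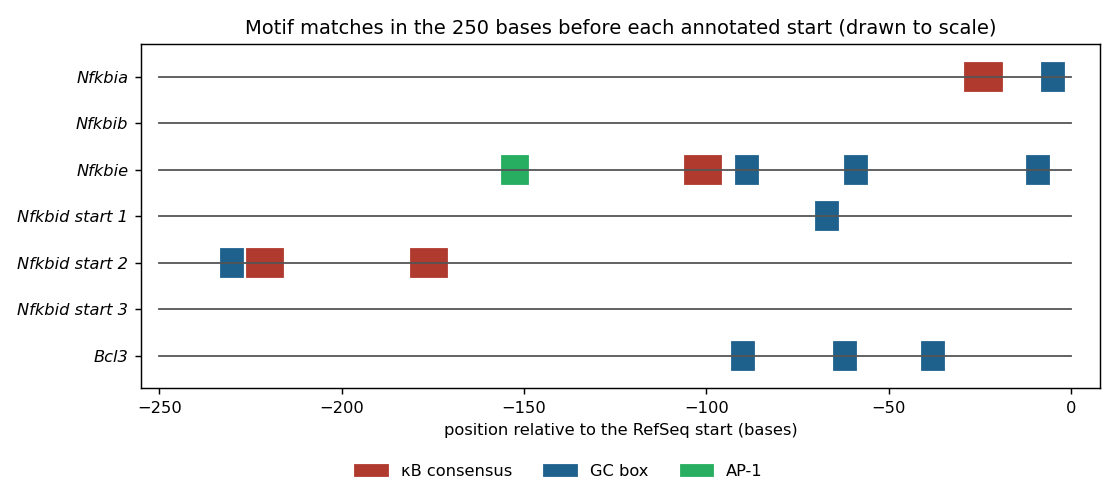
Positions of motif matches in the 250 bases before each annotated start of 5 IκB genes, with distance from the start in bases on the horizontal axis and 1 line per start; marks stand for the NF-κB consensus, the GC box and the AP-1 letters. *Nfkbia* and *Nfkbie* each hold 1 NF-κB match, and *Nfkbid* holds 2 before its second start.

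Wild-type cells answered 1 h of TNF-α with higher signals of 3 of the 6 genes. The signal of *Nfkbia* rose 5.88-fold, that of *Nfkbie* 5.20-fold and that of *Nfkbiz* 1.94-fold, and 0 members were called lower. These are folds of array signal and were not converted to folds of transcript. Across all 23410 probe sets tested, 0.111% were called higher and 0.00427% lower in this comparison by the same rule (limma, Benjamini-Hochberg adjusted p under 0.05). At an unadjusted p under 0.05 it was 5 of the 6 members and 7.10% of all probe sets. The arrays of the stimulated and unstimulated wild-type groups did not overlap for 5 of the 6 members, all higher with TNF-α, where 4.01% of all probe sets lay entirely higher. The median difference of the 6 members was 0.89, beside −0.02 over all probe sets tested.

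In Trap-80 knock-down cells 0 of the 6 members passed the same test against stimulated wild-type cells, where 5.96% of all probe sets did (limma). Of those calls over all probe sets, 56.3% were higher in knock-down cells, and 68.8% after each array was centred on its median. At an unadjusted p under 0.05, 1 member passed, *Nfkbiz*, and 17.4% of all probe sets. The median difference of the members was −0.10, beside −0.02 over all probe sets tested, with 4 members below 0 and 2 above. The interval of each member's difference shows how large a change in signal these arrays leave possible, which is not a limit on the change in transcript.

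**Figure D2:**
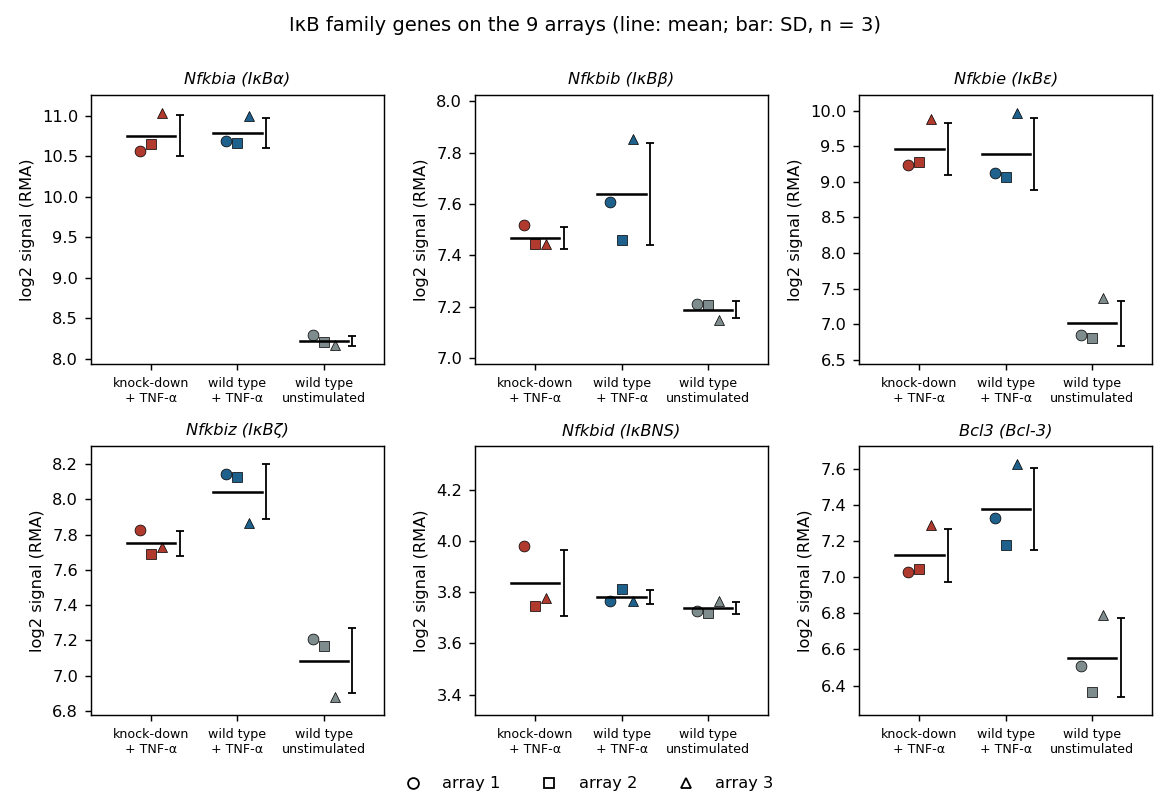
Log2 signal of the 6 IκB genes on each of 9 arrays, in panels by gene, with knock-down cells with TNF-α, wild-type cells with TNF-α and unstimulated wild-type cells from left to right; points are arrays, marked by number, with lines at the group means and bars of 1 SD. Both stimulated groups lie above the unstimulated one for every gene except *Nfkbid*, whose 3 groups overlap.

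*Nfkbia*, whose product IκBα is the main feedback inhibitor of p65 dimers, had signals of 10.57, 10.65 and 11.04 in knock-down cells, 10.69, 10.66 and 10.99 in wild-type cells with TNF-α, and 8.29, 8.21 and 8.17 in unstimulated wild-type cells. Every stimulated array lay at least 2.27 above every unstimulated one, and the arrays of both stimulated groups overlapped each other. The response of wild-type cells was 2.56 (SE 0.13, 95% interval 2.26 to 2.86, limma adjusted p = 7.8e-05), or 5.88-fold. It ranked 7 by size and 3 by p among all probe sets tested. The knock-down difference was −0.03 (95% interval −0.33 to 0.27, limma adjusted p = 0.95), and became 0.03 when each array was centred on its median. The knock-down signal was thus 97.9% of the wild-type signal, with an interval that reaches as low as 79.5% and as high as 121%.

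*Nfkbie* encodes IκBε, a further cytoplasmic inhibitor that is resynthesized after NF-κB activation. Its signals were 9.24, 9.27 and 9.88 in knock-down cells, 9.12, 9.07 and 9.97 in wild-type cells with TNF-α, and 6.85, 6.81 and 7.37 in unstimulated wild-type cells. The stimulated arrays all exceeded the unstimulated ones, while those of both stimulated cell lines overlapped. The wild-type response was 2.38 (SE 0.27, 95% interval 1.77 to 2.99, limma adjusted p = 0.015), or 5.20-fold. The knock-down difference was 0.07 (95% interval −0.54 to 0.68, limma adjusted p = 0.94), and its sign turned when single arrays were left out (−0.13 to 0.36). This interval was wider than that of *Nfkbia*. The array numbered 3 was the highest in every group, above the mean of the other two by 0.62 in knock-down cells, 0.87 in wild-type cells with TNF-α and 0.54 in unstimulated wild-type cells. With the replicate number as a block, the standard error was 0.09 and the adjusted p for the response 3.1e-05. Without the block the call was lost when unstimulated array 1 (adjusted p = 0.11), unstimulated array 2 (0.097) or stimulated wild-type array 1 (0.066) was left out.

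*Nfkbib* encodes IκBβ, which is also degraded after activation of the IκB kinase but is not part of the rapid feedback loop formed by IκBα. Its signals were 7.52, 7.44 and 7.45 in knock-down cells, 7.61, 7.46 and 7.85 in wild-type cells with TNF-α, and 7.21, 7.21 and 7.15 in unstimulated wild-type cells. The stimulated wild-type arrays lay above all 3 unstimulated arrays, but by no more than 0.70 for any pair of the same number. The response of 0.45 (SE 0.10, 95% interval 0.23 to 0.67) had an unadjusted p of 0.0011 and a limma adjusted p of 0.26, and so did not pass. The knock-down difference was −0.17 (95% interval −0.39 to 0.05, limma adjusted p = 0.43). Most of that difference lay on array 3, with −0.41 for the arrays numbered 3, against −0.09 and −0.02 for those numbered 1 and 2.

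*Nfkbiz* was the atypical member called in the TNF-α response. Its product IκBζ is a nuclear cofactor that, in mouse macrophages, is needed for a set of delayed NF-κB targets. Its signals were 7.83, 7.69 and 7.73 in knock-down cells, 8.14, 8.12 and 7.86 in wild-type cells with TNF-α, and 7.21, 7.17 and 6.88 in unstimulated wild-type cells. The 3 groups formed 3 separate levels, with the knock-down cells in the middle. The wild-type response was 0.96 (SE 0.11, 95% interval 0.71 to 1.21, limma adjusted p = 0.016), and the differences between arrays of the same number were 0.93, 0.95 and 0.99. This call was lost when unstimulated array 1 or 2 or stimulated wild-type array 1 or 2 was left out, with adjusted p between 0.056 and 0.11.

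The knock-down difference of *Nfkbiz* was −0.29 (SE 0.11, 95% interval −0.54 to −0.04), which left 81.6% of the wild-type signal. Its unadjusted p was 0.026 and its limma adjusted p 0.20, so that it did not pass over all probe sets. It was lower in 3 of 3 pairs of arrays of the same number, by −0.32, −0.43 and −0.13, and the adjusted p with the replicate block was 0.077. The highest knock-down array (7.83) was 0.04 below the lowest stimulated wild-type array (7.86). Of the 6 members *Nfkbiz* alone had knock-down arrays that lay entirely below the wild-type ones, which 10.0% of all probe sets also did.

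*Bcl3*, the proto-oncogene whose product binds dimers of p50 and of p52 in the nucleus, had signals of 7.03, 7.05 and 7.29 in knock-down cells, 7.33, 7.18 and 7.63 in wild-type cells with TNF-α, and 6.51, 6.36 and 6.79 in unstimulated wild-type cells. The stimulated wild-type arrays all lay above the unstimulated ones, and the array numbered 3 was the highest of each group. The response of 0.82 (SE 0.14, 95% interval 0.50 to 1.15) did not pass the test (limma adjusted p = 0.12), although the arrays of the same number differed by 0.82, 0.82 and 0.83. With the replicate number as a block, it passed (adjusted p = 0.0038), which raised the number of members called higher to 4, where 0.218% of all probe sets were called higher. The knock-down difference was −0.26 (95% interval −0.58 to 0.07, limma adjusted p = 0.42, or 0.073 with the block), and it was negative in 3 of 3 pairs, at −0.30, −0.13 and −0.34. The knock-down and wild-type arrays of *Bcl3* overlapped.

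*Nfkbid* encodes IκBNS, which in mouse macrophages restrains the transcription of a subset of NF-κB targets. It gave signals of 3.98, 3.75 and 3.78 in knock-down cells, 3.77, 3.81 and 3.77 in wild-type cells with TNF-α, and 3.73, 3.72 and 3.77 in unstimulated wild-type cells. Its mean over the 9 arrays (3.78) was below that of the median probe set (4.51), and 3 of its 9 values were identical. Neither the response of 0.04 (95% interval −0.13 to 0.22, limma adjusted p = 0.91) nor the knock-down difference of 0.05 (95% interval −0.12 to 0.23, limma adjusted p = 0.79) passed, and the sign of the response turned after centring each array on its median (−0.01) or quantile normalization (−0.0011). The intervals bound the change in signal. At a signal this low differences are compressed, so that a change in *Nfkbid* RNA was not detected rather than shown to be absent.

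**Figure D3:**
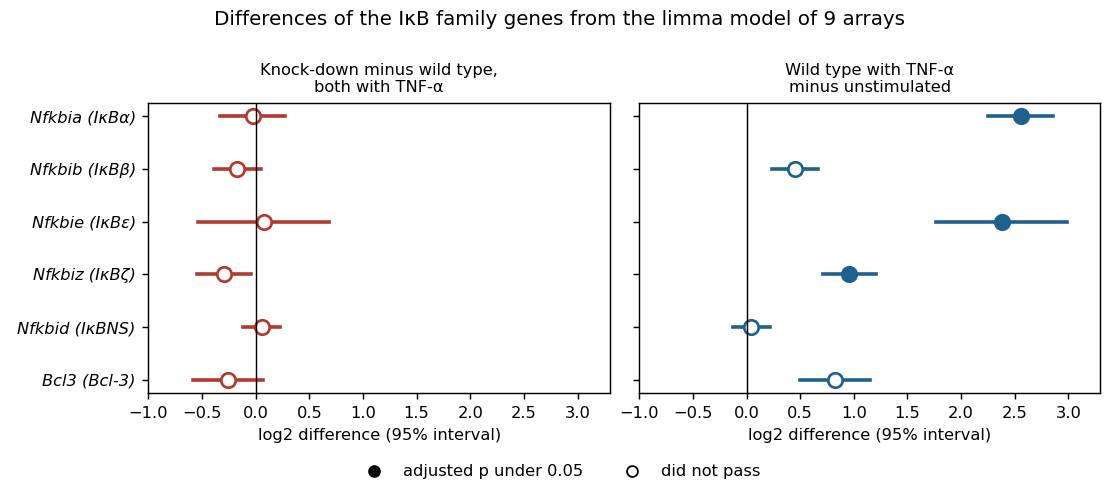
Difference in log2 signal with its 95% interval for the 6 IκB genes, for stimulated knock-down minus stimulated wild-type cells, and for wild type with TNF-α minus unstimulated wild type. The intervals of the knock-down difference include 0 for every gene but *Nfkbiz* (−0.54 to −0.04), and the responses to TNF-α are largest for *Nfkbia* (2.56) and *Nfkbie* (2.38).

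Ordered by the size of the wild-type response in signal, the members ran *Nfkbia*, *Nfkbie*, *Nfkbiz*, *Bcl3*, *Nfkbib* and *Nfkbid*. Each was set against the next by the difference between the genes on each array, stimulated against unstimulated wild type. The 5 pairs were fixed by the observed order, so the steps are a description. The response of *Nfkbia* exceeded that of *Nfkbie* by 0.18, with steps of 0.12, 0.19 and 0.22 between arrays numbered 1, 2 and 3. That of *Nfkbiz* exceeded that of *Bcl3* by 0.14, with steps of 0.11, 0.14 and 0.16. Both steps were small but of 1 sign in 3 of 3 pairs, although the arrays overlapped when the numbers were set aside (exact two-sided permutation p = 0.5 for both, without the pairing). The step between *Nfkbie* and *Nfkbiz* was 1.42 (1.34, 1.31 and 1.61 by number), and that between *Bcl3* and *Nfkbib* 0.37 (0.42, 0.56 and 0.13). For these the arrays did not overlap, with an exact p of 0.1, the smallest this design allows, and 0.17 after Benjamini-Hochberg adjustment over the 5 pairs. The last pair sets *Nfkbib* against *Nfkbid*, whose signal is too low to give its place in the order a meaning. None of the 5 pairs passed a threshold of 0.05, which this design cannot reach.

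Stimulated knock-down cells were also set against unstimulated wild-type cells. This comparison shares arrays with both others and joins the effect of the cell line to that of TNF-α, so that its values stand beside theirs only as a description. In it 4 of the 6 members were called higher, where 3.64% of all probe sets were (limma). The differences were 2.53 for *Nfkbia*, 2.45 for *Nfkbie*, 0.67 for *Nfkbiz* and 0.57 for *Bcl3*, and 0.28 for *Nfkbib* and 0.10 for *Nfkbid*, which were not called. The call for *Bcl3* (adjusted p = 0.043) was lost when unstimulated array 1 or 2, stimulated wild-type array 1 or any of the 3 knock-down arrays was left out (adjusted p 0.073 to 0.14), with only the 6 arrays compared (0.060) and with all deposited probe sets tested (0.085). The count of 4 was then 3, and it was 5 without stimulated wild-type array 3, where *Nfkbib* passed (adjusted p = 0.047).

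Arrays of a group also scattered to a different extent by gene, which was not tested. *Nfkbie* had the largest residual SD at 0.40 and *Nfkbid* the smallest at 0.08. The array numbered 3 was the highest of every group for *Nfkbie* and *Bcl3*, whereas it was the lowest in 2 of 3 groups for *Nfkbiz*. What the replicate numbers mark beyond independent samples was not given in the sources used here.

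**Figure D4:**
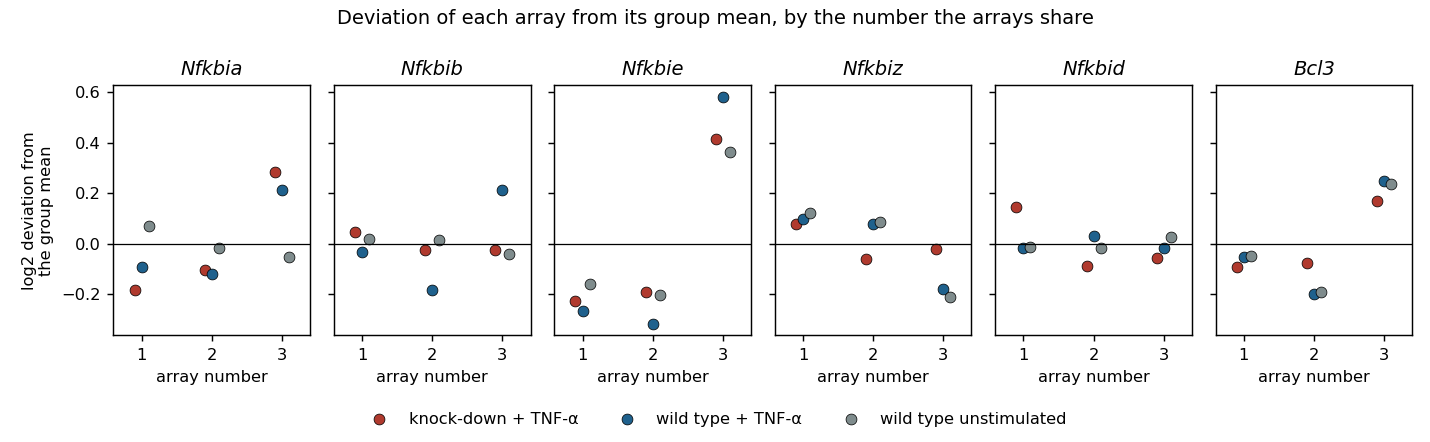
Deviation of each array from its group mean, in log2 units, for the 6 IκB genes, in panels by gene with the replicate number of the array on the horizontal axis; colours stand for knock-down cells with TNF-α, wild-type cells with TNF-α and unstimulated wild-type cells. For *Nfkbie* and *Bcl3* the array numbered 3 is the highest in all 3 groups.

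Over the 9 arrays the signals of *Nfkbia* and *Nfkbie* correlated at r = 0.979, and those of *Nfkbid* with the other members at 0.24 to 0.39. These coefficients describe arrays in 3 separate groups, and mix differences between groups with those within them. Among 19940 other genes, those most like *Nfkbia* were *Ccl7* (0.996), *Junb* (0.994) and *Ccl20* (0.989), encoding a chemokine, a subunit of AP-1 and a further chemokine. *Nfkbie* ran most closely with *Vcam1* and *Irf1* (both 0.992), an adhesion molecule and an interferon regulatory factor, and with the chemokine gene *Cx3cl1* (0.991). For *Bcl3* the closest were *Gadd45a* (0.978), *Icam1* (0.978) and *Gadd45b* (0.969). For *Nfkbiz* they were *Ier3* (0.948), *Tnfaip3* (0.947) and *Smim3* (0.943). *Tnfaip3* encodes A20, an inhibitor of TNF receptor signalling upstream of the IκB kinase. It was lower by −1.13 in the knock-down line, set against wild-type cells under TNF-α (limma adjusted p = 0.0047). In that comparison *Ier3* differed by −0.01 (adjusted p = 0.99) and *Smim3* by −0.18 (0.18). No other gene named in this paragraph as correlated with a member was called in it. For *Nfkbib* the closest were *Ptges* (0.970), *Sdc4* (0.968) and *A4gnt* (0.967).

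The partners of the IκB proteins were then examined as 5 lists of 37 genes, of which 34 were measured under a single symbol. *Nfkb1*, *Chuk* and *C3* were not matched. In the response of wild-type cells to TNF-α 3 of the 34 were called higher and 0 lower, beside 0.111% of all probe sets called higher. In the knock-down difference 1 was called higher and 1 lower, beside 3.36% and 2.60% of all probe sets. Between stimulated knock-down and unstimulated wild-type cells 6 were called higher and 1 lower, beside 3.64% and 4.62%.

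Among the Rel subunits and precursors, *Relb* had a mean of 7.50 ± 0.26 in stimulated and 6.57 ± 0.15 in unstimulated wild-type cells (SD, n = 3 arrays each), a rise of 0.94 (limma adjusted p = 0.048). *Rel*, encoding c-Rel, had a mean of 7.79 in stimulated and 7.06 in unstimulated wild-type cells, a rise of 0.72 (limma adjusted p = 0.047, or 0.060 with the replicate block). Both calls lay at the threshold, and both were lost whenever any single array was left out (adjusted p 0.055 to 0.23 for *Relb* and 0.064 to 0.17 for *Rel*). *Nfkb2*, whose precursor p100 itself acts as an IκB, showed a response of 0.71 that did not pass (adjusted p = 0.18, or 0.012 with the replicate block) and a knock-down difference of −0.05 (95% interval −0.36 to 0.26, limma adjusted p = 0.90), which was 0.01 after centring. In the knock-down difference 0 of the 4 measured genes of this list were called, and 0 had an unadjusted p under 0.05 (limma).

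Of the IκB kinase list, 0 of 6 measured genes were called in the TNF-α response (1 at an unadjusted p under 0.05, limma) and 1 in the knock-down difference. This was *Map3k7*, encoding TAK1, the kinase that activates the IκB kinase, with 9.23, 9.19 and 9.14 in knock-down cells, 8.74, 8.78 and 8.52 in wild-type cells with TNF-α and 8.89, 8.78 and 8.83 in unstimulated wild-type cells. Every knock-down array lay above all wild-type arrays, and the difference with TNF-α was 0.51 (limma adjusted p = 0.0068). The 8 measured components of the ubiquitin ligase that acts on phosphorylated IκB ranged between −0.16 and 0.20 in the TNF-α response and between −0.17 and 0.20 in the knock-down difference, and 0 were called in either (limma, with 0 and 1 at an unadjusted p under 0.05). The 10 genes encoding κB-Ras and other IκB-binding proteins likewise had 0 calls (limma, with 0 at an unadjusted p under 0.05 in either comparison), with knock-down differences of −0.19 to 0.40. The gene at 0.40 was *Usp11*, encoding a deubiquitinating enzyme, which is named after its values were seen, because it passed with the replicate block (limma adjusted p = 0.038, and 0.57 without it).

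Of the genes known to need IκBζ in mouse macrophages, 6 of 7 were measured. With TNF-α 1 was called higher, and in knock-down cells 1 lower (limma, with 3 and 2 at an unadjusted p under 0.05). *Il6* and *Il12b* had mean signals of 2.71 and 4.11, below that of the median probe set (4.51), and *Csf3* lay at 4.57. For *Il6* the response was 0.43 (limma unadjusted p = 0.031, adjusted p = 0.68) and the knock-down difference −0.34 (adjusted p = 0.35). At such low signals the lack of a call does not show that a change was absent. *Csf2*, encoding the growth factor GM-CSF, rose by 2.11 in wild-type cells with TNF-α (limma adjusted p = 0.012), with 6.33, 5.81 and 6.62 stimulated and 4.12, 4.31 and 4.02 unstimulated. That call was lost when any unstimulated array or stimulated wild-type array 1 was left out (adjusted p 0.069 to 0.10). *Lcn2*, encoding the iron-binding protein lipocalin-2, had 5.47, 4.84 and 4.09 in knock-down cells, 6.98, 7.21 and 7.35 in wild-type cells with TNF-α, and 6.47, 6.70 and 6.85 in unstimulated wild-type cells. It was lower in knock-down cells than in stimulated wild-type cells by −2.38 (limma adjusted p = 0.0019), and its response to TNF-α in wild-type cells was not called, with every knock-down array below those of both wild-type groups. *Edn1*, encoding endothelin-1, was called between stimulated knock-down and unstimulated wild-type cells (1.51, limma adjusted p = 0.0073). Its response in wild-type cells was 1.27 (95% interval 0.69 to 1.86, unadjusted p = 0.00078, limma adjusted p = 0.22), with arrays that did not overlap, and its knock-down difference was 0.24 (95% interval −0.35 to 0.82, limma adjusted p = 0.72).

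**Figure D5:**
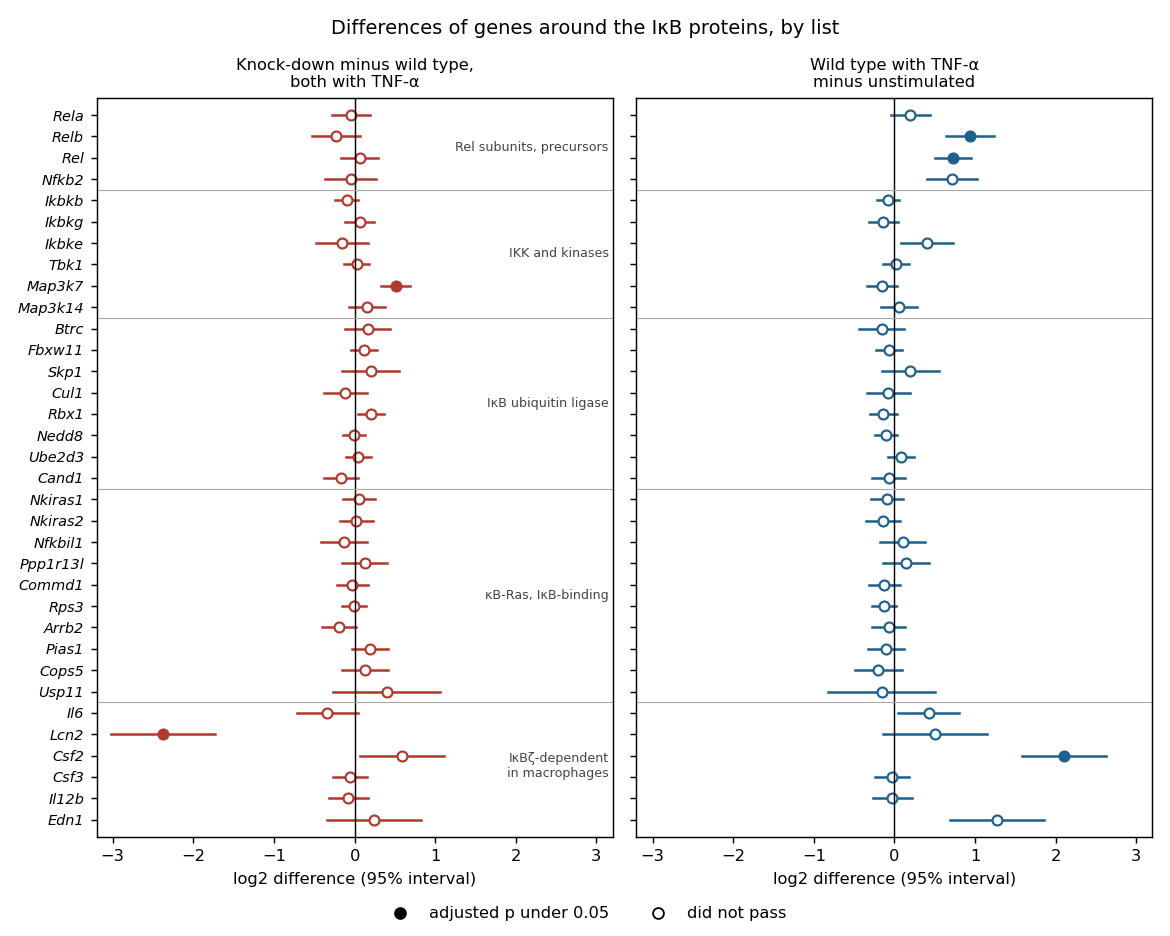
Difference in log2 signal for the 34 measured genes of 5 lists of IκB partners and downstream genes, 1 point per gene with its 95% interval, for stimulated knock-down minus stimulated wild-type cells, and for wild type with TNF-α minus unstimulated wild type; filled points passed an adjusted p under 0.05. The called genes are *Map3k7* and *Lcn2* for the knock-down and *Relb*, *Rel* and *Csf2* for TNF-α.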

How the data were processed

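RNA of 3 independent samples per group was hybridized to Affymetrix Mouse Gene 1.0 ST arrays, 9 in all. The deposited log2 values are those of RMA (version not given in the sources used here), which subtracts background, brings the arrays to a common distribution and condenses the probes of a set into 1 value. Differences at low signal are compressed by it. The values were used as they stood, dim probe sets included. Of 35557 probe sets, the platform annotation gave 21797 a single symbol, 1613 several and 12147 none here, and the 23410 with a gene were tested. The number of arrays limits the precision.

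A linear model with a mean for each of the 3 groups was fitted to the 9 arrays together in limma (version 3.58.1 under R 4.3.3, moderated two-sided test), with Benjamini-Hochberg adjustment over 23410 probe sets and a threshold of 0.05. The script was tested on simulated data. The study's methods state a reproducibility filter but no model. The 6 genes, the 5 lists and the tests were chosen with earlier results of these data known, so no pattern here is independent support. Named genes were the members, *Med17*, *Nfkb2*, listed genes called in any comparison and, for each member with an unadjusted p under 0.05 for TNF-α, the 3 genes most correlated with it. *Il6*, *Il12b* and *Csf3* were named besides, for signals near or below that of the median probe set.

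The labels number the arrays 1 to 3 in each group. Deviations from the group means correlated between arrays of the same number at 0.298, 0.110 and 0.403 for the TNF-α response. For the knock-down they correlated at 0.147, 0.274 and 0.465. For stimulated knock-down against unstimulated wild-type cells they correlated at 0.151, 0.0022 and 0.221. Some arrays of different numbers were as close. Stimulated array 1 and unstimulated array 2 of wild-type cells correlated at 0.249, and knock-down array 1 and stimulated wild-type array 2 at 0.16. Because of these, a pairing of arrays 1 and 2 by number was not shown. In every comparison arrays numbered 3 correlated negatively with those numbered 1 and 2. Deviations cancel out within a group, so such negative values follow from the positive correlation of arrays numbered 3. They say nothing further of a pairing. The number was given as a block beside results it changes, and pairs by number are a description. Motifs were searched on both strands of RefSeq promoter windows. Alternatives were the block, only the 6 arrays compared, median centring, quantile normalization, all probe sets, brighter probe sets, a mean-variance trend and leaving out arrays.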

Additional observations from a re-analysis of the deposited data

How the results depend on the processing

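The count of 3 IκB genes called higher with TNF-α was 1 with only the 6 arrays compared and 1 with all deposited probe sets tested, since the adjusted p of *Nfkbie* then reached 0.12 and 0.059 and that of *Nfkbiz* 0.15 and 0.059, and it ranged from 1 to 3 when single arrays were left out, with 1 without unstimulated array 1 or 2 or stimulated wild-type array 1. The count of 0 for the knock-down was 0 under every alternative run. The 3 pathway genes called with TNF-α were 0 with only the 6 arrays, 1 after median centring, 0 with all probe sets, and 0 to 1 without single arrays or without all 3 arrays numbered 3, the last an alternative chosen after seeing the data. The 7 pathway genes called between stimulated knock-down and unstimulated wild-type cells were 4 to 7 when single arrays were left out, with 4 without unstimulated array 1. Some differences that were not called changed sign. Centring gave 0.027 for *Nfkbia* and 0.0065 for *Nfkb2* in the knock-down, and centring and quantile normalization gave −0.012 and −0.0011 for *Nfkbid* with TNF-α. Leaving out single arrays gave knock-down differences of −0.17 to 0.076 for *Nfkbia*, −0.13 to 0.36 for *Nfkbie*, −0.019 to 0.098 for *Nfkbid*, −0.0018 to 0.17 for *Rel*, −0.16 to 0.092 for *Nfkb2* and −0.055 to 0.45 for *Edn1*. The cause of these turns was not tested.

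With the replicate number as a block, 4 IκB genes were called with TNF-α and 0 in the knock-down, and among pathway genes *Nfkb2* gained (adjusted p = 0.012) and *Rel* lost (0.060) its call with TNF-α. Among the IκB genes, *Med17* and the listed pathway genes, the block otherwise changed the calls of *Bcl3* with TNF-α and *Usp11* in the knock-down and no other; the genes correlated with the members were not examined with it. Over all probe sets the 27 calls with TNF-α became 55 with the block, 9 with the 6 arrays and 13 with all probe sets, and the 1395 calls of the knock-down became 2108 with the block. Leaving out single arrays gave 9 to 23 and 738 to 1596 calls. Every member had a single probe set, so the mean over probe sets of a symbol gave no other value, and *Nfkbid* was not tested among brighter probe sets. With 3 arrays a group, the standard error limits what a difference can show. Its median over all probe sets tested was 0.10. Among the members it ran from 0.08 for *Nfkbid* to 0.27 for *Nfkbie*, and it was 0.29 for *Usp11*.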
